A study of Mus musculus with 12 samples.

Results

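The comparison set 2 mouse RNA-seq libraries labelled Skp1aKO against 2 control libraries of lot 1, one labelled Skp1acont and one labelled Skp1acont PI. These 4 libraries were chosen by their labels alone, out of 11 libraries in the count table and 12 that are labelled. All 4 carry an age of 9.5 dpc (days post coitum), embryo as tissue and a growth medium for embryonic stem cells or embryoid bodies. The libraries labelled Skp1aKO are lots 1 and 2, and both controls are lot 1. One more control library of the table, Skp1acont of lot 2, was kept out of the fit and is given beside the results. The remaining 6 libraries are labelled wt, at 9.0 or 9.5 dpc, with or without PI. What lot, PI and cont stand for, how Skp1a was deleted, in which cells, and what genotype the controls have is stated in none of the labels. Nothing ties lots to separate animals or cultures either, and the p-values therefore cover library-to-library spread that may be technical.

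SKP1 (gene Skp1a in the mouse) is the adaptor of the SCF ubiquitin ligases: it holds an F-box protein, which picks the substrate, onto the cullin CUL1, which brings the RING protein RBX1 and a ubiquitin-charged enzyme. Substrates tagged by SCF ligases are then broken down by the proteasome, and many are regulators of the cell cycle. The series title links SKP1A to the degradation of Polycomb repressive complex 2 (PRC2), the enzyme complex that places the repressive H3K27 methyl mark on developmental genes. In the embryo at this age, such genes include many transcription factors of patterning.

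The libraries held 3601338 and 3017451 counts (labelled Skp1aKO, lots 1 and 2), 4203553 (Skp1acont, lot 1) and 4128267 (Skp1acont PI, lot 1), and the left-out control held 2320599. Olfactory, vomeronasal and taste receptor genes, which are silent in most tissues, gave a measure of background reads: their median level in CPM (counts scaled to a common library size) per kb of exon. It was 0.608 and 0.656 in the libraries labelled Skp1aKO, 0.259 in Skp1acont and 0.274 in Skp1acont PI of lot 1, and 1.29 in Skp1acont of lot 2. Both libraries labelled Skp1aKO were thus above both lot 1 controls and below the lot 2 control. Cytosolic ribosomal protein genes took 6.03% and 5.75% of counts against 9.38% and 9.24%, and 3.46% in the lot 2 control. The mitochondrial genome took 10.2% and 8.72% against 5.98% and 7.3%, and 15.8% in the lot 2 control. With Skp1acont of lot 2 added to the controls, edgeR called 0 genes (424 at an unadjusted p under 0.05, smallest adjusted p 0.2) and DESeq2 called 7, so the edgeR calls below all rest on leaving it out.

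**Figure D1:**
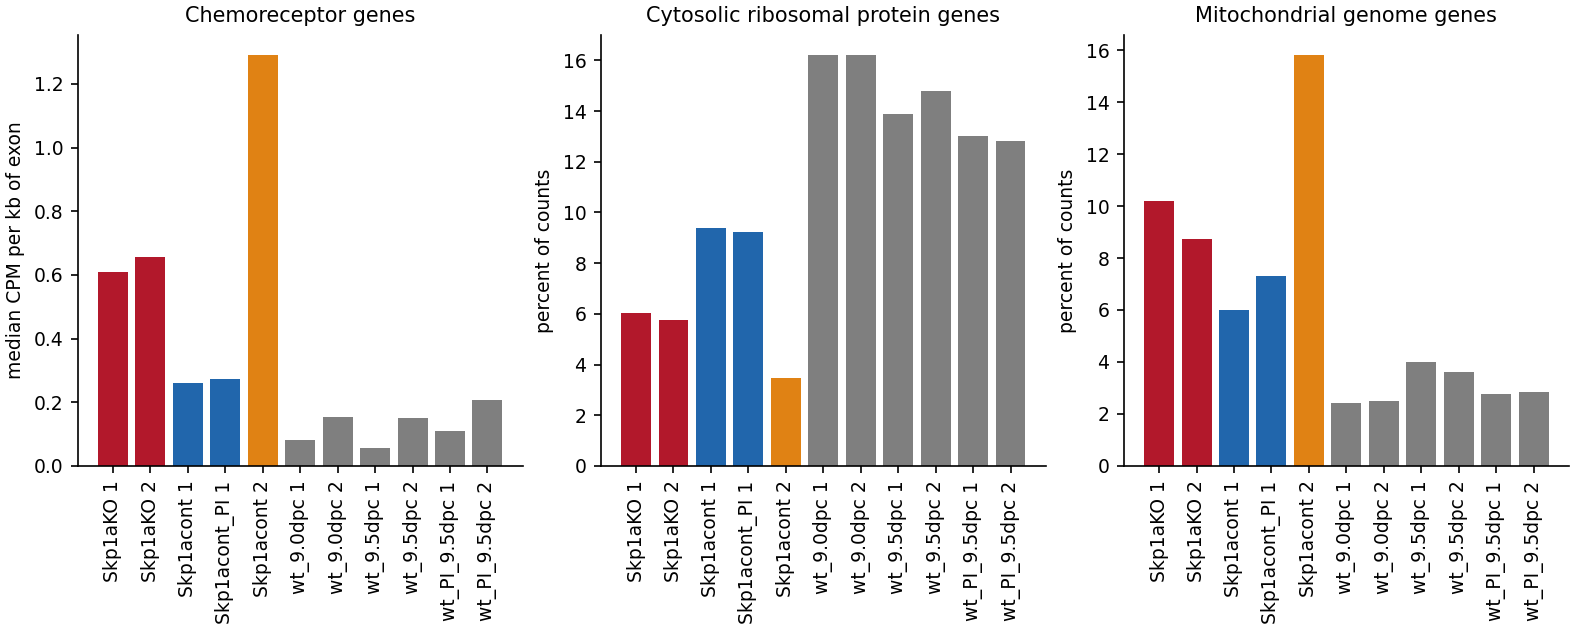
Bars give, for each of the 11 libraries, the median level of chemoreceptor genes (CPM per kb of exon, left), the percent of counts on cytosolic ribosomal protein genes (middle) and the percent on the mitochondrial genome (right). In all 3 panels the libraries labelled Skp1aKO (red) lie between the lot 1 controls (blue) and the lot 2 control (orange), and the wt libraries are in grey.

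The targeted gene did not mark the label clearly. Skp1a (chromosome 11, 52231995 to 52246858, GRCm38, plus strand) had 271.6 and 289.4 CPM in the Skp1aKO-labelled libraries, 388.4 in Skp1acont and 358.9 in Skp1acont PI of lot 1, and 164.5 in Skp1acont of lot 2. Its level was lower than in both lot 1 controls and higher than in the lot 2 control. The log2 fold change was -0.41 ± 0.16 (SE), with an adjusted p of 0.0617, and did not pass the threshold of 0.05. Which exons the deletion removes is stated in no label, and counts over the whole gene leave the label unsettled.

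Several partners of SKP1 were called lower. Of 30 genes of the SCF ligase and of neddylation, the modification that switches cullins on, 8 fell and 1 rose; over all 15073 genes tested, 17.5% fell and 16.6% rose. Rbx1, the RING subunit, had 256.7 and 208.3 CPM in the Skp1aKO-labelled libraries against 579.9 in Skp1acont and 430.6 in Skp1acont PI. Nedd8, the modifier itself, had 179.5 and 153.7 CPM against 421.4 and 353.0. The groups did not overlap for either gene, which held in either direction for 10662 of the 15073 genes tested. The log2 fold changes were -1.12 ± 0.19 and -1.22 ± 0.17 (adjusted p 0.00217 and 0.000889). Ube2m, the NEDD8-conjugating enzyme, fell by 1.22 and Cks1b, a cofactor of the F-box protein SKP2, by 1.12 on the log2 scale. The lot 2 control was below both libraries labelled Skp1aKO for these 4 genes, at 149.1 CPM for Rbx1 and 97.8 CPM for Nedd8.

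Cul1, the scaffold, was among the 2 called members of this list for which both libraries labelled Skp1aKO lay below all 3 controls. It had 87.7 and 64.5 CPM against 135.3, 132.8 and, in the lot 2 control, 88.7 CPM, so that the nearest values almost touched. Fbxo11, an F-box protein, had 33.3 and 37.1 CPM against 65.9, 53.7 and 44.6 CPM. Fbxl14, another F-box protein, was the member that rose, with 59.1 and 61.2 CPM against 33.6, 38.0 and 10.1 CPM, above all 3 controls. These members outside all 3 controls, like those named in this way below, were chosen after their values were seen.

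The core of PRC2 was not called. Ezh2, its methyltransferase, had 212.3 and 229.4 CPM against 272.3 in Skp1acont, 242.5 in Skp1acont PI and 128 in the lot 2 control. Its log2 fold change was -0.22 ± 0.16 (adjusted p 0.296). Eed, which reads the mark, had -0.35 ± 0.17 (adjusted p 0.136) and Suz12, which holds the complex together, 0.17 ± 0.16 (adjusted p 0.42). Of the 11 genes of the complex and its cofactors, the histone-binding subunits Rbbp7 and Rbbp4 fell, by 0.61 and 0.45 on the log2 scale, and 0 rose. The 2 of 11 lower calls were near the 17.5% of all genes, and after subtraction of background (described below) neither gene was called (adjusted p 0.131 and 0.297); leaving out Skp1acont of lot 1 left 0 called too. In a fit together with the wt libraries, 3 of the list were called lower, and 4 when replicate number entered that fit, with 0 higher in both. Rbbp7 and Rbbp4 bind histones in several other complexes too. In the lot 2 control both were lower than in the libraries labelled Skp1aKO, at 114.1 CPM against 147.7 and 163.1 for Rbbp7.

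PRC1, the second Polycomb complex, gave 3 lower and 2 higher genes of 20 (15% and 10%, against 17.5% and 16.6% of all genes tested). Cbx2, a reader of the PRC2 mark, had 26.0 and 31.4 CPM against 52.3 and 52.2, and 15.8 CPM in the lot 2 control (log2 fold change -0.87 ± 0.19, adjusted p 0.00615). Phc1 fell by 0.60 and Phc2, a related scaffold, by 0.57 on the log2 scale. Pcgf5 rose by 0.72, and so did Bcor, a subunit of a variant PRC1, by 0.57. Leaving out Skp1acont PI gave 5 lower and 1 higher genes of PRC1, and leaving out Skp1aKO of lot 2 gave 3 lower and 0 higher. Among 11 genes of DNA methylation, Mbd3, Dnmt3b and Mbd1 fell and Tet1, which oxidises methylated cytosine, rose. Dnmt3b, a de novo methyltransferase, had 23.7 and 22.0 CPM against 39.9, 44.2 and, in the lot 2 control, 49.9 CPM, below all 3.

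Of 50 developmental regulators listed as Polycomb targets, 33 were expressed enough to be tested. Of these 3 rose (9.09%) and 1 fell (3.03%), against 16.6% and 17.5% of all genes tested. The median log2 fold change of the 33 was 0.27 against 0.03 over all genes tested. The counts turned on single libraries: leaving out Skp1acont PI gave 9 higher and 5 lower of 37, leaving out Skp1acont of lot 1 gave 7 and 2 of 38, and leaving out Skp1aKO of lot 2 gave 1 and 0 of 35. Meis2, a homeobox gene, had 124.0 and 112.4 CPM against 175.9 and 146.5, and 114.1 CPM in the lot 2 control. Its log2 fold change of -0.45 ± 0.16 missed the threshold (adjusted p 0.0535). The 3 that rose were Wt1, Tbx5 and Foxc2, all transcription factors of mesoderm and mesenchyme. Wt1 had 6.43 and 7.84 CPM against 0.487 and 1.80, but 9.11 CPM in the lot 2 control, and its background expected from its exon length equalled 54.9% of its mean level in the libraries labelled Skp1aKO. Tbx5 had 4.97 and 5.73 CPM against 0.973 and 1.54, with 7.19 CPM in the lot 2 control and an expected background of 55.3%. Foxc2, a forkhead factor of head mesenchyme, had 6.73 and 9.04 CPM against 1.22, 2.83 and, in the lot 2 control, 3.36 CPM, with an expected background of 21.9%. Only Foxc2 of the 3 thus lay above all 3 controls. Pax7, a dorsal neural tube and neural crest factor, was the member that fell, with 13.2 and 11.8 CPM against 20.2, 19.8 and 15.3 CPM. Of 39 Hox genes in the table, 4 were tested and Hoxb2 rose, from 0.973 and 1.28 CPM to 4.68 and 4.22 CPM, with 5.27 CPM in the lot 2 control. Wt1, Tbx5, Foxc2 and Hoxb2 were expressed enough to be tested only through the libraries labelled Skp1aKO. A rise was thus the only call open to them, and their rises are given as description only.

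Over all genes, edgeR's quasi-likelihood test called 5129 of 15073 (34%), 2497 higher (16.6%) and 2632 lower (17.5%) in the libraries labelled Skp1aKO. Scaling by library totals in place of TMM gave 3161 higher and 2171 lower, so that 59.3% rather than 48.7% of calls were higher. The 2 libraries labelled Skp1aKO differed from each other by a median of 0.195 on the log2 scale over 9737 genes of at least 10 CPM, and the 2 lot 1 controls, which differ in PI, by 0.214. Across the sides, pairs of libraries differed by 0.418 to 0.513. Leaving out Skp1aKO of lot 1 left 1395 higher calls and leaving out Skp1aKO of lot 2 left 1355 (3274 calls in all).

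**Figure D2:**
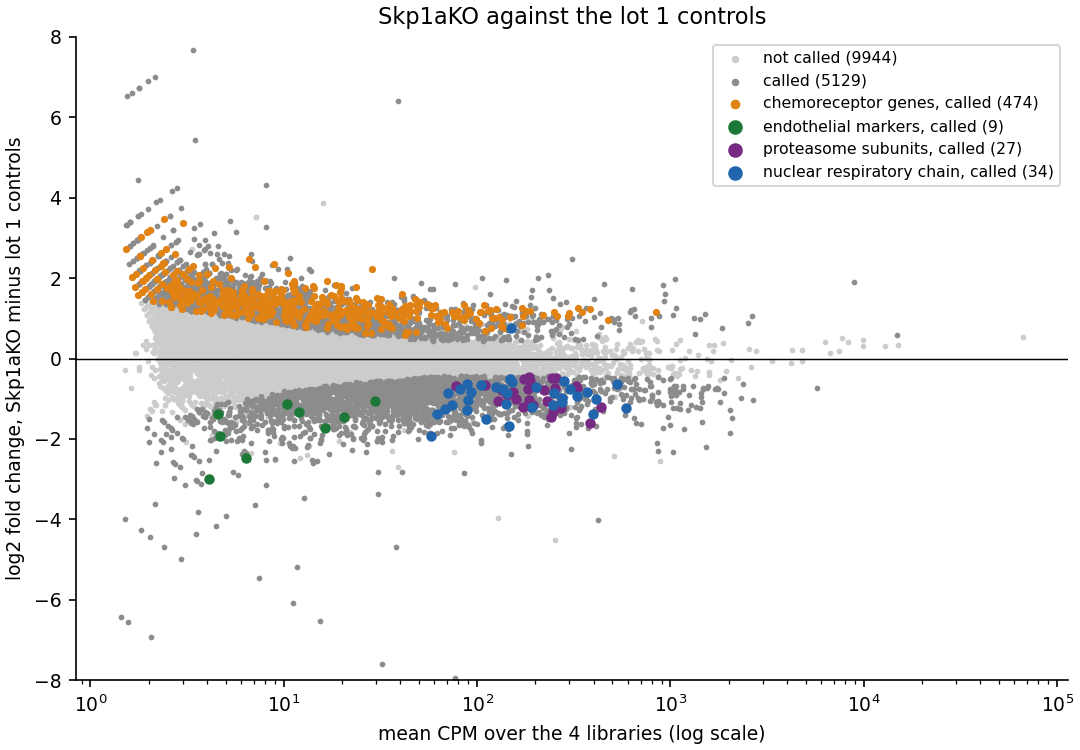
Each point is a tested gene, with its mean CPM over the 4 libraries (horizontal, log scale) and its log2 fold change, libraries labelled Skp1aKO minus lot 1 controls (vertical). The 474 called chemoreceptor genes lie above 0, while called proteasome, respiratory chain and endothelial genes lie below it, apart from 1 respiratory chain gene; 13 genes beyond 8 in absolute value are off the axis.

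Genes called lower and genes called higher differed in kind. The 2632 lower genes had a median of 63.3 CPM in the wt libraries of 9.5 dpc, and 90.3% of them reached 10 CPM there. The 2497 higher genes had a median of 2.62 CPM in the same wt libraries, and 28.4% of them were under 1 CPM, against 10.6% of all genes tested. Their median exon length was 5029.5 bases, against 3153.5 for the lower genes and 4608.5 for all genes. Chemoreceptor genes made up 474 of the higher calls and 0 of the lower ones. For 628 of the higher genes, background expected from exon length was at least 50% of the mean level in the libraries labelled Skp1aKO, and for 643 it was under 10%. Subtracting that background left 3515 calls of 12870 genes (27.3%), 1659 higher (12.9%) and 1856 lower (14.4%); 1389 of the higher and 1750 of the lower calls were kept. After subtraction 320 of 485 tested chemoreceptor genes were still called higher, with a median log2 fold change of 1.38 against 1.18 before it. The subtraction thus did not remove the rise of the genes that define the background, and a call kept after it is not cleared of background. The part of the background in the calls was not tested beyond this subtraction.

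The largest shares of lower calls were in housekeeping machinery, while 17.5% of all genes tested fell and 16.6% rose. Of 37 nuclear genes of the respiratory chain, 33 fell and 1 rose, with a median log2 fold change of -0.85. Of 33 proteasome subunits, 27 fell and 0 rose, with a median of -0.75. Of 83 cytosolic ribosomal protein genes, 59 fell and 0 rose (median -0.74), and of 30 genes of DNA replication licensing and the replication fork, 19 fell and 0 rose (median -0.66). After subtraction of background, 24, 20, 39 and 14 of these genes were still called lower, and 2 ribosomal protein genes and 1 respiratory chain gene were called higher.

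**Figure D3:**
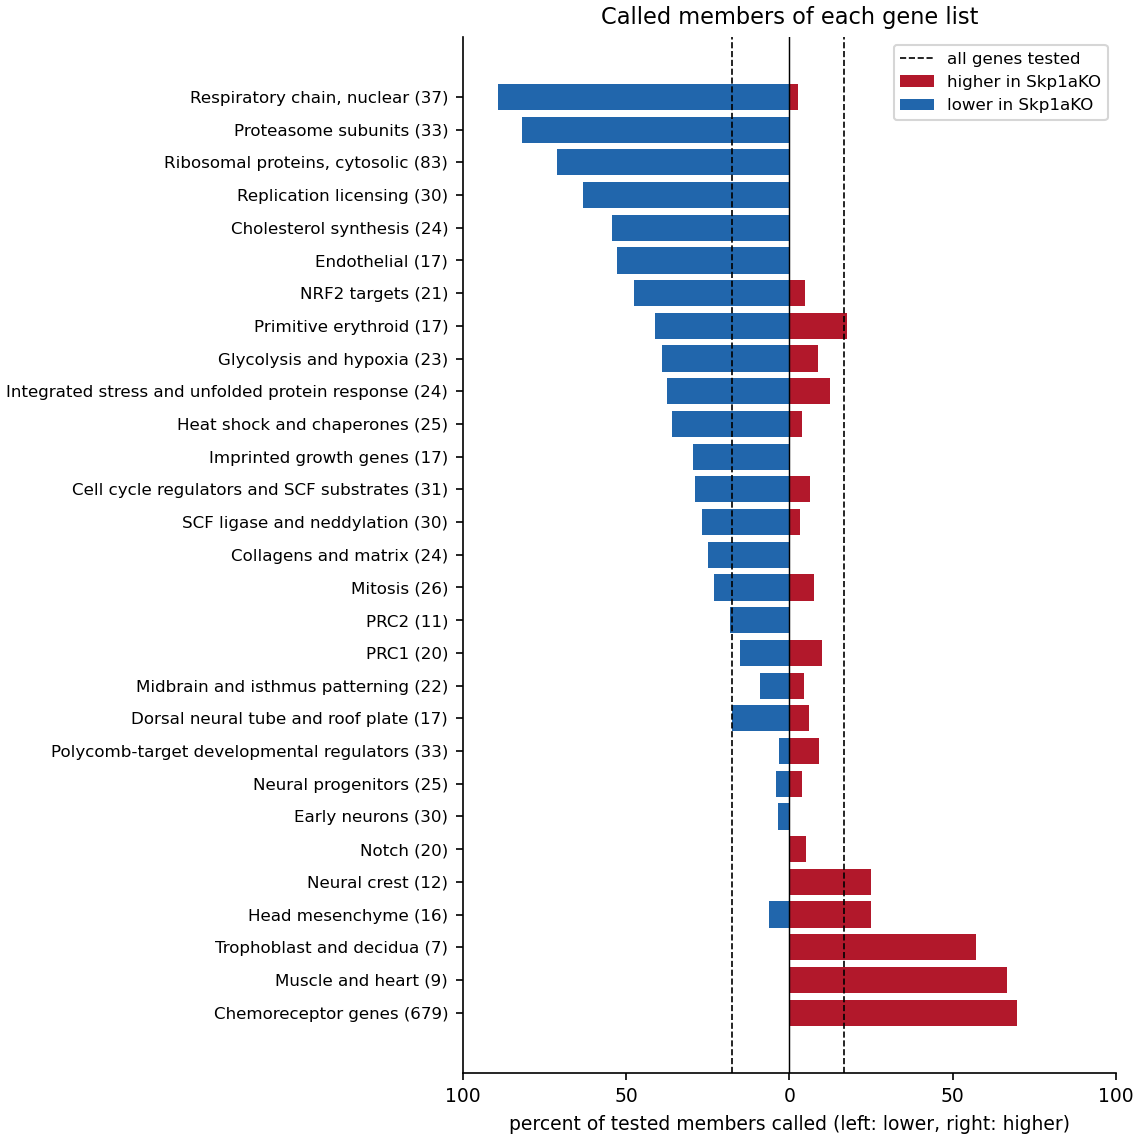
Bars give, for 29 gene lists, the percent of tested members called higher (red, right) or lower (blue, left) in the libraries labelled Skp1aKO, with the number tested in brackets. Dashed lines mark the shares over all genes tested, 16.6% higher and 17.5% lower; respiratory chain, proteasome and ribosomal protein genes extend farthest to the left and chemoreceptor genes, muscle genes and trophoblast genes farthest to the right.

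Proteasome subunits showed the pattern gene by gene. Psmb6, a catalytic subunit, had 193.3 and 187.5 CPM in the Skp1aKO-labelled libraries against 682.5 in Skp1acont and 469.7 in Skp1acont PI, a log2 fold change of -1.60 ± 0.20 (adjusted p 0.000614). Psmb3 had 121.3 and 135.0 CPM against 395.4 and 311.1 (-1.46 ± 0.18, adjusted p 0.000539). In the lot 2 control Psmb6 had 158.2 and Psmb3 90.1 CPM, below both libraries labelled Skp1aKO. Psmb2 fell by 1.34 and Psmb1 by 1.24 on the log2 scale. For 31 of the 33 subunits both libraries labelled Skp1aKO lay below both lot 1 controls, and for 2 they lay below the lot 2 control as well. The 2 sides were apart, in either direction, for 10662 of all 15073 genes tested. The summed level of the list was 4930 and 4860 CPM against 9200 and 8200 CPM, with 3500 CPM in the lot 2 control, the lowest of the 5.

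Proteasome genes are known to be induced by NRF1 (Nfe2l1) and NRF2 through the antioxidant response element, and many nuclear respiratory chain genes by nuclear respiratory factor 1 (gene Nrf1, a different protein). The 250 bases before the RefSeq start (GRCm38.p6) were searched on both strands for TGACNNNGC in proteasome genes and for GCGCA, any base and GCGC in respiratory chain genes. A promoter was matched for 27 of 33 tested proteasome genes, and 5 held the first motif (18.5%, against 13.2% of 11314 tested genes with a promoter). Of 26 matched respiratory chain genes, 6 held the second (23.1%, against 8.4%). Promoters of 11 matched endothelial markers were searched for the ETS core CCGGAAG, which 0 of them and 14% of tested genes held. Of the genes that held their motif, Psmc6 (edgeR adjusted p 0.0545), Sdha (0.07) and Sdhd (0.187) were not called. The windows below were picked from motif holders that were called lower, and a link between motif and fall was not tested. Capitals mark the motif, and Psmd12 carries it in the reverse orientation.
Psmb6, chr11:70525323-70525356, plus strand: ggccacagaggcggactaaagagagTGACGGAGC
Adrm1, chr2:180171401-180171459, plus strand: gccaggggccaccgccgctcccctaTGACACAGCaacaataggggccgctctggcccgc
Psmd12, chr11:107479278-107479314, plus strand: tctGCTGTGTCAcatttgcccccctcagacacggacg
Cox6a1, chr5:115349041-115349100, minus strand: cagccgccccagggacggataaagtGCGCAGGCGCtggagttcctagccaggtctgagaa
Adrm1 and Psmd12 encode subunits of the regulatory particle and fell by 0.68 and 0.82 on the log2 scale, and Cox6a1, a subunit of cytochrome c oxidase, fell by 1.21. A match is a run of letters in a window and no measurement of binding.

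In the respiratory chain, Sdhb, the iron-sulfur subunit of complex II, had 72.8 and 66.9 CPM against 263.5 and 184.0, with 31.6 CPM in the lot 2 control. Ndufa8 and Ndufv1, subunits of complex I, fell by 1.51 and 1.37 on the log2 scale. Uqcrc1, a core subunit of complex III, was the called member that fell below all 3 controls, with 30.4 and 17.5 CPM against 111.4, 71.4 and 82.95 CPM. Cox5a was the exception that rose, from 97.6 and 125.1 CPM to 175.7 and 198.9 CPM, with 113.2 CPM in the lot 2 control. The 13 tested genes of the mitochondrial genome, which encodes the other subunits of the chain, had a median log2 fold change of 0.45, and mt-Co2, mt-Nd6 and mt-Nd5 were called higher. Without Skp1aKO of lot 2, 11 of the 13 were called higher, and without Skp1acont of lot 1, 0 were. For mt-Nd5 the levels were 2322 and 2286 CPM against 1149 and 1595 CPM, and 3397 CPM in the lot 2 control.

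Among ribosomal protein genes, Rplp0 had 1012 and 754.8 CPM against 3371 and 3021, with 766.2 CPM in the lot 2 control (log2 fold change -1.86 ± 0.19, adjusted p 0.000395). Rpl29 and Rpl10 fell by 1.47 and 1.46 on the log2 scale. Ribosomal protein genes have many near-identical pseudogene copies between which counting can divide reads, so single values are uncertain. Of these genes, 0 of 83 lay below all 3 controls in both libraries labelled Skp1aKO, against 10.6% of all genes tested.

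Replication genes differed from the ribosomal and proteasome lists in this respect: 6 of 30 lay below all 3 controls, 5 of them called. Mcm3, part of the replicative helicase, had 60.2 and 61.8 CPM against 173.5 in Skp1acont, 170.9 in Skp1acont PI and 99.7 in the lot 2 control, with a log2 fold change of -1.5 ± 0.15 (adjusted p 0.000372). Gins2, of the GINS complex that joins that helicase, had 45.3 and 35.0 CPM against 127.7, 103.5 and 56.1 CPM. Rfc4, of the clamp loader, had 46.2 and 49.7 CPM against 160.6, 98.2 and 71.4 CPM. Gins1 and Mcm10 completed the 5, and expected background was between 2.02% and 13.7% of the levels of these 5 genes. No test was made of whether the lists differ from each other.

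Cell cycle regulators, many of them SCF substrates, gave 9 lower and 2 higher genes of 31 (29% and 6.45%, against 17.5% and 16.6% of all genes tested). Ccne1, cyclin E1, which SCF with FBXW7 is known to tag, had 39.2 and 33.2 CPM against 73.5 and 75.8, and 35.0 CPM in the lot 2 control (log2 fold change -1.04 ± 0.17, adjusted p 0.00163). Cdk4 and Ccnb1 fell by 0.90 and 0.80, and Cdkn2d, a CDK inhibitor, by 1.14. Myc, another known substrate of FBXW7, rose with 47.1 and 47.6 CPM against 29.9, 26.5 and 36.0 CPM, above all 3 controls. Of 26 genes of mitosis, 6 fell and 2 rose (23.1% and 7.69%). Birc5 and Bub1b, of the chromosomal passenger complex and the spindle checkpoint, fell by 1.28 and 1.17, while the kinetochore genes Knl1 and Cenpf rose by 0.77 and 0.59 and lay above all 3 controls. Without Skp1aKO of lot 2 the cell cycle list gave 5 lower and 1 higher, and without Skp1acont PI the mitosis list gave 10 lower and 1 higher.

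Endothelial markers were the cell type list with the largest share called lower. Of 17 tested, 9 fell (52.9%, against 17.5% of all genes tested) and 0 rose. The median log2 fold change was -1.06 against 0.03 over all genes. Members expressed enough to be tested only through the lot 1 controls, such as Esam, could only be called lower. The counts over this list are therefore a description. Both libraries labelled Skp1aKO lay below all 3 controls for 8 of the 17, of which 6 were called, against 10.6% of all genes tested below all 3 and 4.71% both below and called. After subtraction of background 7 of 13 tested were called lower. Lower levels in a bulk library cannot tell fewer cells of a type from less RNA per cell.

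Flt1, a receptor for VEGF, had 9.94 and 12.1 CPM in the Skp1aKO-labelled libraries against 38.2 in Skp1acont, 21.8 in Skp1acont PI and 18.2 in the lot 2 control (log2 fold change -1.45 ± 0.30, adjusted p 0.00571). Its expected background equalled 77.6% of its level in the Skp1aKO-labelled libraries, and the log2 fold change was -3.13 after subtraction (adjusted p 0.0018). Kdr, the main signalling receptor for VEGF, had 18.1 and 20.5 CPM against 48.7, 31.6 and 24.9 CPM (-1.06 ± 0.25, adjusted p 0.0089), with an expected background of 29.6%. Egfl7, a secreted endothelial protein, had 8.19 and 6.93 CPM against 29.0, 21.6 and 18.7 CPM (-1.74 ± 0.28, adjusted p 0.00143), with an expected background of 29.9%. The groups did not overlap for any of the 3 genes, with the lot 2 control the lowest control each time. Background in that control was higher, at 1.29 CPM per kb of exon against 0.608 and 0.656 in the Skp1aKO-labelled libraries. With 13504 bases of exon, Flt1 at 18.2 CPM there was close to its expected background. The 24.9 CPM of Kdr there also holds more expected background than its levels in the Skp1aKO-labelled libraries. Whether Kdr stays below that control after subtraction was not tested. Esam and Robo4, adhesion and guidance receptors of endothelium, fell by 2.46 and 1.93 on the log2 scale, and Plvap, of fenestrae, by 2.98. Esam, Robo4 and Plvap were at or near background in the libraries labelled Skp1aKO, where the expected background equalled 93.4%, 174% and 140% of their level. The falls of Esam, Robo4 and Plvap are given as description only. Esam and Robo4 differed by over 2-fold between the lot 1 controls too, at 15.6 and 5.91 CPM for Esam in Skp1acont and Skp1acont PI. Cdh5, Cldn5 and Ramp2 fell as well, but lay below the libraries labelled Skp1aKO in the lot 2 control, at 4.80 CPM against 6.43 and 7.23 CPM for Cdh5. Pecam1 stood apart from the list, with 1582 and 834.4 CPM against 726.6 and 1154 CPM, and with 463.1 and 114.1 CPM in the wt libraries of 9.5 dpc.

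Embryonic globin genes of the primitive red cell line were lower than in the lot 1 controls, but not than in the lot 2 control. Hba-x, an embryonic alpha globin, had 510.5 and 444.3 CPM against 1051 in Skp1acont and 1949 in Skp1acont PI, and 435.8 CPM in the lot 2 control (log2 fold change -1.65 ± 0.29, adjusted p 0.00516). Hbb-y, an embryonic beta globin, had 355.6 and 228.5 CPM against 913.7 and 1941, and 274.7 CPM in the lot 2 control. The lot 1 controls differed from each other as well, with Skp1acont PI the higher for both genes. Of 17 erythroid genes 7 fell and 3 rose (41.2% and 17.6%, against 17.5% and 16.6% of all genes tested). Nfe2, a factor of the erythroid and platelet lines, fell below all 3 controls with 5.85 and 8.14 CPM against 13.1, 21.3 and 23.5 CPM. Tfrc, the transferrin receptor, rose above all 3 with 154.7 and 202.3 CPM against 118.5, 98.7 and 82.95 CPM.

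Pf4, a chemokine of platelets and their precursors, had the largest fold change of the named genes. It had 1 read in each library labelled Skp1aKO (0.292 and 0.301 CPM) against 21.7 CPM in Skp1acont and 39.3 CPM in Skp1acont PI of lot 1, and 0.959 CPM in the lot 2 control. From 2 counts against 242, the level was 102-fold lower, with a 95% counting interval of 27.9 to 846. Pf4 was expressed enough to be tested only through the lot 1 controls, so a fall was the only call open to it. Its expected background equalled 154% of its level in the libraries labelled Skp1aKO. The lot 2 value was itself under the 1.44 CPM that 3 counts are worth in that library. Pf4 was also one of the genes that DESeq2 called with the lot 2 control added (log2 fold change -6.18 ± 1.37, adjusted p 0.0253). Of 19 listed markers of platelets and macrophages 6 were tested, and the calls over all genes tested were 16.6% higher and 17.5% lower. Csf1r, Ptprc and Mrc1 were called higher, with an expected background of 30.3%, 88.6% and 84.7% of their level and the lot 2 control not below both Skp1aKO-labelled libraries. Itga2b and Laptm5 were not called (log2 fold change -0.34 and -0.11). Ppbp, another platelet chemokine, was too low to be tested, with 2 and 1 counts in the libraries labelled Skp1aKO against 2 in Skp1acont and 31 in Skp1acont PI of lot 1.

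**Figure D4:**
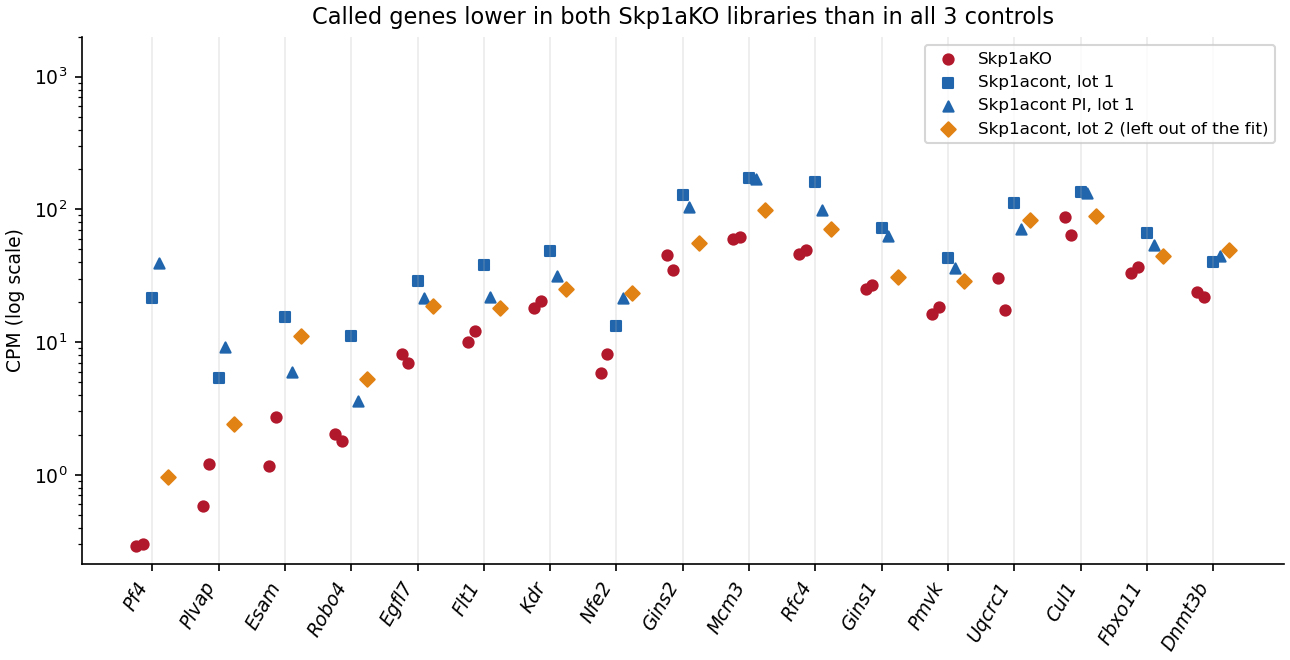
Points give the CPM (log scale) of 17 called genes in the libraries labelled Skp1aKO (red), the lot 1 controls (blue) and the lot 2 control that was left out of the fit (orange). The genes were picked because both red points lie below the other 3 in each column, and the gap is narrowest for Cul1. It is widest for Pf4, whose lot 2 value of 0.959 CPM is under the 1.44 CPM that 3 counts are worth there.

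Genes above all 3 controls were fewer. Both libraries labelled Skp1aKO lay above all 3 controls for 1266 of 15073 genes (8.4%) and below all 3 for 1594 (10.6%). Of the calls against lot 1, 368 lay above all 3 (2.44% of genes tested) and 710 below (4.71%). Among chemoreceptor genes 7 of 679 lay above all 3, and 627 of 679 above both lot 1 controls. Of all genes tested, 10662 lay above or below both lot 1 controls. The genes above all 3 controls are therefore given here by function, as a description.

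Vegfa, the ligand of Flt1 and Kdr, was among them. It had 16.4 and 15.4 CPM in the Skp1aKO-labelled libraries against 4.14 in Skp1acont, 5.40 in Skp1acont PI and 10.1 in the lot 2 control, with a log2 fold change of 1.73 ± 0.30 (adjusted p 0.00222) and an expected background of 17.1%. Ddit4, a stress- and hypoxia-induced inhibitor of mTORC1, had 12.3 and 14.8 CPM against 3.16, 3.85 and 3.36 CPM (1.94 ± 0.33, adjusted p 0.00205). Sesn2, another stress-induced inhibitor of mTORC1, had 6.43 and 9.35 CPM against 2.68, 2.83 and 3.84 CPM. Of 23 genes of glycolysis and hypoxia 9 fell (39.1%) and 2 rose (8.7%), Vegfa and Pfkp, against 17.5% and 16.6% of all genes tested. Gapdh had 685.4 and 417.2 CPM against 2874 and 2147, and Eno1 and Pfkl were lower by 1.22 and 1.14 on the log2 scale. In the lot 2 control Gapdh was at 285.3 CPM, below the libraries labelled Skp1aKO.

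Mex3d, an RNA-binding protein, had 79.8 and 95.9 CPM in the Skp1aKO-labelled libraries against 24.1, 29.0 and 38.8 CPM (log2 fold change 1.73 ± 0.18, adjusted p 0.000401). Pdgfra, a receptor of mesenchyme, had 24.3 and 26.8 CPM against 6.57, 10.8 and 10.6 CPM (1.56 ± 0.28, adjusted p 0.00254). Snai2, a neural crest factor, had 8.77 and 16.6 CPM against 4.38, 5.91 and 7.19 CPM, so that its lowest value was near the highest control. Over all genes tested 16.6% rose and 17.5% fell, against 25% and 6.25% of 16 head mesenchyme genes (4 and 1). Of 12 neural crest genes 3 rose (25%) and 0 fell. Pdgfra, Foxc2, Snai2 and Mitf, the pigment cell factor, were the called members above all 3 controls. Without Skp1aKO of lot 2, 2 head mesenchyme and 0 neural crest genes were called higher. Tbx18 and Dlx6 rose against lot 1 but were highest in the lot 2 control, and Pdgfrb fell, with 8.77 and 9.04 CPM against 16.1, 15.7 and 11.5 CPM.

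**Figure D5:**
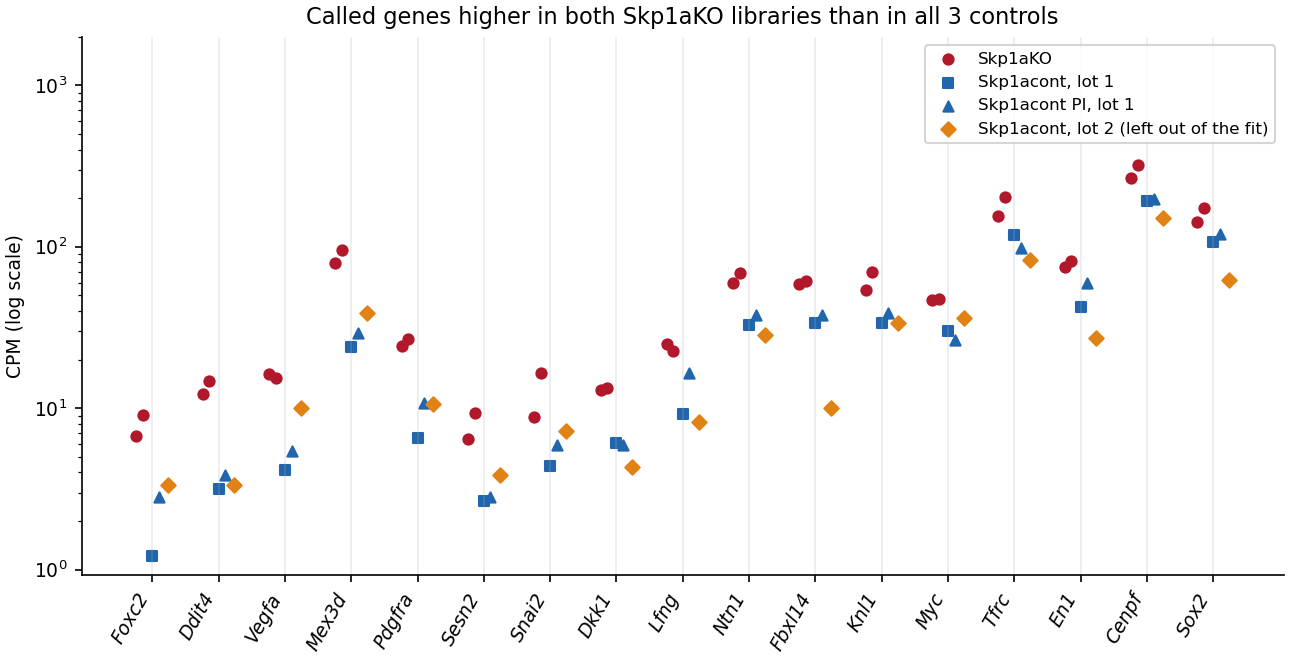
Points give the CPM (log scale) of 17 called genes in the libraries labelled Skp1aKO (red), the lot 1 controls (blue) and the lot 2 control that was left out of the fit (orange). The genes were picked because both red points lie above the other 3 in each column; Ddit4, Mex3d and Pdgfra show wide gaps and Snai2 and Myc narrow ones.

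Over all genes tested, 16.6% rose and 17.5% fell. Of 25 genes of neural progenitors 1 rose and 1 fell (4% each), and of 30 genes of early neurons 1 fell (3.33%). Of 22 genes of midbrain and isthmus patterning 1 rose (4.55%) and 2 fell (9.09%). These counts also turned on single libraries: without Skp1aKO of lot 1, 10 of the 30 early neuron genes were called lower (median log2 fold change -0.46, against -0.07 with it), and without Skp1acont PI 3 of them were. The midbrain list gave 3 higher and 4 lower of 23 without Skp1acont PI. Sox2, the progenitor factor, had 143.0 and 174.5 CPM against 106.6, 120.0 and 61.9 CPM (log2 fold change 0.49 ± 0.17, adjusted p 0.0418). En1, of midbrain and isthmus, had 74.9 and 81.4 CPM against 42.1, 59.9 and 27.3 CPM (0.62 ± 0.19, adjusted p 0.0288). Fgf17 and Fgf18, ligands made near the isthmus, fell by 1.12 and 1.32, and for Fgf17 both libraries labelled Skp1aKO lay below all 3 controls. Hmga2 fell by 0.56 and Dpysl3, of growing axons, by 1.08 on the log2 scale. Summed over the midbrain list, the level was 1170 and 1040 CPM against 1170 and 1200 CPM, and 1040 CPM in the lot 2 control.

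Of 17 dorsal neural tube and roof plate genes 3 fell and 1 rose (17.6% and 5.88%, against 17.5% and 16.6% of all genes tested). Of this list 0 were called in the DESeq2 Wald test or after subtraction of background. Rspo1, a Wnt agonist of the roof plate, had 10.82 and 10.85 CPM in the Skp1aKO-labelled libraries against 19.2, 18.5 and 20.6 CPM, below all 3 controls. Zic5 fell by 0.54 and Zic2, its relative, rose by 1.5 on the log2 scale. After subtraction the adjusted p was 0.0978 for Rspo1 and 0.15 for Zic5, and without Skp1acont PI 5 of the list were called lower. Of 18 genes of Hedgehog signalling and ventral identity, Smo and Gli3 fell by 0.80 and 0.64, and Ntn1, the floor plate guidance ligand, rose. Without Skp1acont PI 8 of 19 were called higher and 2 lower (median 1.07), and without Skp1acont of lot 1, 2 higher and 4 lower (median -0.26), so that the direction of the list turned on 1 control library. Ntn1 had 59.9 and 69.0 CPM against 32.6, 37.8 and 28.3 CPM (log2 fold change 0.87 ± 0.18, adjusted p 0.00457). Of 20 Notch genes Lfng rose, with 25.2 and 22.6 CPM against 9.25, 16.4 and 8.15 CPM. Of 29 Wnt genes 5 fell and 4 rose (6 and 0 without Skp1aKO of lot 1): Ctnnb1, the beta-catenin gene, had 157.6 and 163.7 CPM against 421.4 and 275.4, and Dkk1, a secreted Wnt inhibitor, had 12.9 and 13.3 CPM against 6.08, 5.91 and 4.32 CPM. In the lot 2 control Ctnnb1 was at 106.4 CPM, below both libraries labelled Skp1aKO. The shares of the Wnt list, 17.2% lower and 13.8% higher, were near those of all genes tested. Dbx1, of the intermediate neural tube, was among the 12 strongest falls, with 4.97 and 3.62 CPM against 30.4 and 20.6, and 4.32 CPM in the lot 2 control.

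Stress and biosynthesis lists were lower on balance, while 17.5% of all genes tested fell and 16.6% rose. Of 24 genes of the integrated stress response and the unfolded protein response 9 fell and 3 rose. The aminoacyl-tRNA synthetase genes Sars and Aars, known targets of the factor ATF4, fell by 1.66 and 1.46, with 49.7 and 36.8 CPM against 134.1 and 140.0 for Sars and 38.4 CPM in the lot 2 control. Of 25 chaperone genes 9 fell and 1 rose, with the TRiC subunits Cct3, Cct7 and Cct5 lower by 1.00, 0.93 and 0.82. Of 24 p53 targets and apoptosis genes 7 fell and 2 rose. Without Skp1aKO of lot 2, 5 chaperone genes and 3 of the p53 list were called lower. Of 21 NRF2 targets 10 fell and 1 rose, with Ftl1, ferritin light chain, at 386.0 and 304.8 CPM against 1836 and 1617, and 329.4 CPM in the lot 2 control.

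Cholesterol synthesis gave 13 lower and 0 higher genes of 24 (54.2% lower, against 17.5% of all genes tested). Of the 24, 8 lay below all 3 controls, 6 of them called, against 10.6% and 4.71% of all genes tested. After subtraction of background 5 were called lower and 1 higher, without Skp1aKO of lot 2, 6 lower, and with scaling by library totals 7 lower. Pmvk, a kinase of the mevalonate pathway, had 16.4 and 18.4 CPM against 43.3, 36.2 and 28.8 CPM (log2 fold change -1.19 ± 0.21, adjusted p 0.00243). Idi1, an isomerase of the same pathway, had 78.7 and 87.4 CPM against 123.1, 109.5 and 91.6 CPM. Ebp, Mvd and Fdft1 fell by 1.17, 1.10 and 0.83 on the log2 scale, but Ebp, Mvd and Fdft1 were not below the lot 2 control in both libraries labelled Skp1aKO. Hmgcs1 fell by 0.76.

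Of the 12 largest rises, 8 were olfactory or vomeronasal receptor genes, the family that measured background here: Olfr613, Olfr417, Olfr1328, Vmn1r78, Olfr1380, Olfr1157, Olfr1205 and Olfr596. Olfr613 had 28.4 and 65.7 CPM against 9.003 and 11.1, and 128.5 CPM in the lot 2 control. All 8 were highest in the lot 2 control. Of 679 tested chemoreceptor genes 474 rose and 0 fell, with a median log2 fold change of 1.18 (291 rose without Skp1aKO of lot 1). The shares of all genes tested were 16.6% higher and 17.5% lower. The other 4 of the 12 were Nudt14, Map11, Cetn4 and Ankra2. Map11 lay above all 3 controls, with 14.6 and 24.4 CPM against 4.38, 5.40 and 10.6 CPM, and Nudt14, a nucleotide sugar hydrolase, had 238.6 and 512.4 CPM against 75.0 and 103.3, and 291.0 CPM in the lot 2 control. Expected background was 0.267% of the level of Nudt14 and 2.42% of that of Ankra2.

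Of 20 listed muscle and heart genes 9 were tested and 6 of these rose; 3 did when either library labelled Skp1aKO was left out, and 0 were called after subtraction of background. Ttn, the giant sarcomere protein, had 41.5 and 50.3 CPM against 22.6 and 20.04, and 119.4 CPM in the lot 2 control, and its expected background equalled 161% of its level. Of 19 listed trophoblast genes 7 were tested and 4 of these rose (2 when either Skp1aKO-labelled library was left out), among them Gcm1, the trophoblast factor, at 17.5 and 15.4 CPM against 6.81 and 7.96, and 30.7 CPM in the lot 2 control, with an expected background of 7.94%. None of the called members of either list lay above all 3 controls. The share called higher over all genes tested was 16.6%.

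Among the strongest falls after Pf4 were those of Slc24a5, Nutf2, Yif1a, Bckdha, Dbx1, Carm1, Cby1, Dpm2, Ftl1 and Hbb-y. Slc24a5, an ion exchanger of pigment cells, had 0 and 1.21 CPM against 29.7 and 15.7, and 0.959 CPM in the lot 2 control. It was expressed enough to be tested only through the lot 1 controls, so a fall was the only call open to it. Nutf2, a nuclear import factor, had 12.9 and 29.2 CPM against 186.9, 114.3 and 54.7 CPM, and Yif1a, of vesicle transport, had 5.56 and 2.41 CPM against 28.2, 20.3 and 21.6 CPM. Carm1, an arginine methyltransferase, had 3.51 and 4.82 CPM against 22.1, 25.7 and 5.75 CPM, and Bckdha, of branched-chain amino acid breakdown, had 4.09 and 2.41 CPM against 18.3, 20.6 and 8.63 CPM. Nutf2, Yif1a, Carm1 and Bckdha lay below all 3 controls. Their expected background equalled 6.11%, 30%, 73.6% and 36.9% of the level in the Skp1aKO-labelled libraries. Carm1 in the lot 2 control, at 5.75 CPM, was itself no higher than its expected background there. For Cby1, Dpm2, Ftl1, Dbx1, Hbb-y and Slc24a5, the lot 2 control was not above both libraries labelled Skp1aKO.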

How the data were processed

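The authors deposited a table of raw counts per gene (36255 genes, 11 libraries of poly(A) RNA, per the labels' protocols). The submitters' processing notes name Trim Galore 0.6.7 and the builds GRCm38 and mm10; no source used here gives the aligner, counter or strand setting. The members and gene lists were chosen with earlier results of these data known.

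The 4 libraries were fitted alone with edgeR 4.0.16 (R 4.3.3): TMM scaling, filterByExpr by side (15073 genes kept), robust quasi-likelihood F test, Benjamini-Hochberg adjustment over all genes tested, called at an adjusted p under 0.05, two-sided. Values after ± are standard errors over 2 against 2 libraries. DESeq2 1.42.0 was an alternative. CPM are on the TMM scale of the 4 libraries. A gene that passed the filter only through its high side had to differ, so counts over lists describe tested members only. Expected background is a library's median chemoreceptor CPM per kb times a gene's exon length (GENCODE M21, GRCm38). Named genes were Skp1a, Ezh2, Eed, Suz12 and Meis2, the 12 largest changes each way among called genes of at least 10 CPM with sides apart, without predicted symbols, and up to 4 called members per list of at least 5 CPM. On simulated counts for this comparison (14553 genes, 100 changed) the fit recovered 52% of 2-fold and 97% of 4-fold changes, with 4.49% false calls. The simulated library-to-library variation was 15.8%, as fitted to the 4 libraries. It was 45% with Skp1acont of lot 2 added, and 5129 genes were called in the data. The false-call share therefore does not describe the calls given here. One labelled library was not analysed here.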

Additional observations from a re-analysis of the deposited data

How the results depend on the processing

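Against 5129 calls (2497 higher, 2632 lower), the DESeq2 Wald test gave 2375 (790 and 1585) and no low-count filter gave 2180 (456 and 1724). With Skp1acont replicate 2 added there were 0 calls in edgeR (0 higher, 0 lower) and, in an alternative chosen after seeing the data, 7 in DESeq2 (1 and 6). Subtracting background left 1659 higher calls. Leaving out each library in turn gave 3274 to 5861 calls, 1355 to 2662 higher and 1919 to 3199 lower; where that left 1 library on a side, it was assumed to vary like the other side. Among the 4 libraries alone a replicate block leaves only the lot 1 libraries to compare, as in the 3274 calls without Skp1aKO replicate 2; together with the 6 wt libraries and the replicate block, 5955 genes were called (2597 and 3358), against 5977 without it. Lot numbers were taken as numbers only, and pairing was not shown. DESeq2 size factors, library totals, the legacy dispersion method, the stricter filter and the fit with wt libraries kept all 3 counts within 1.5 times. Of the 142 named genes called, 142 lost their call with Skp1acont replicate 2 added in edgeR, and 141 in DESeq2. Among the named genes not called, 2 gained a call in the fit with wt libraries, and 3 with the replicate block too. Directions turned as follows: Ezh2 to 0.03 with Skp1acont replicate 2 added, 0.01 with DESeq2 as well and 0.01 with background subtracted; mt-Co2 to -0.18 and -0.17; Psg19 to -0.02 and -0.02; Ptprc to -0.01 and -0.01; Tbx18 to -0.07 and -0.06; Ttn to -0.19 and -0.18 (edgeR and DESeq2 with that library added); Olfr613 to -0.01; and Suz12 to 0.00 with no low-count filter. The causes were not tested. Depth limits genes of a few CPM: 1 read was worth about 0.292 CPM in Skp1aKO replicate 1.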

Other observations

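Imprinted growth genes and extracellular matrix genes were further groups with lower calls only, although leaving out Skp1acont PI gave 1 and 2 higher calls. Of 17 imprinted genes 5 fell and 0 rose (3 and 0 without Skp1aKO of lot 2), with Igf2, a fetal growth factor, at 33.0 and 36.2 CPM in the Skp1aKO-labelled libraries against 115.1 in Skp1acont and 91.0 in Skp1acont PI, and 25.9 CPM in the lot 2 control. Snrpn and Ndn, both expressed from the paternal allele, fell by 1.57 and 0.93 on the log2 scale. Of 24 genes of collagens and matrix 6 fell and 0 rose. The lower share was 29.4% for the imprinted genes and 25% for the matrix genes, against 17.5% of all genes tested. Col4a2, of basement membranes, had 13.7 and 14.2 CPM against 39.9 and 42.9, and 6.23 CPM in the lot 2 control, and Sparc fell by 1.37. Of 19 tested histone genes 5 fell (2 without Skp1aKO of lot 2), among them H2bc4, with 3.22 and 3.32 CPM against 14.8, 12.3 and 5.75 CPM, below all 3 controls. Of 353 zinc finger genes named Zfp, 46 rose and 26 fell (18 and 14 without Skp1aKO of lot 2). These Zfp genes had 13% higher and 7.37% lower, both below the 16.6% and 17.5% of all genes tested. Kdm5d, a Y-linked demethylase, had 117.5 and 118.5 CPM against 57.7 and 56.0, and 207.6 CPM in the lot 2 control.

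Some genes, most of them pseudogenes, had reads in both lot 1 controls and 0 in both libraries labelled Skp1aKO. Of genes at 10 CPM or more in both lot 1 controls, 9 had 0 counts in both libraries labelled Skp1aKO, and 7 are annotated as pseudogenes. Of the 9, 6 were at 0 in Skp1acont of lot 2 too, so these do not set that control apart from the libraries labelled Skp1aKO. Gm10359 and Gm12671, among the 9, had the same values in every library. Rpl10-ps1 had 249.5 CPM in Skp1acont PI and 301.7 CPM in Skp1acont of lot 1, so it was at least 621-fold lower in the libraries labelled Skp1aKO, taking 3 counts over the group as the floor. Rps12-ps3 was at least 477-fold lower by the same floor. In the other direction, with a lower limit of 5 CPM, Exosc6, an exosome subunit, and LT629151.5 had 0 counts in both lot 1 controls. Exosc6 had 7.603 and 13.3 CPM in the Skp1aKO-labelled libraries and 9.11 CPM in the lot 2 control. These genes were chosen after their values were seen, and pseudogene reads can be shared with the parent gene. The annotated span of Exosc6 lies within that of Aars on chromosome 8, and how reads there were assigned was not tested.

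The 7 genes that DESeq2 called with Skp1acont of lot 2 added were Pf4, Ube2n-ps1 and 5 predicted genes. Gm8730, a processed pseudogene, was the one that rose, with 111.4 and 43.4 CPM in the Skp1aKO-labelled libraries against 0.730, 1.03 and 0.480 CPM in Skp1acont and Skp1acont PI of lot 1 and Skp1acont of lot 2 (log2 fold change 6.61 ± 0.78, adjusted p 5.01e-13). Gm10123 fell, with 52.1 and 46.7 CPM against 843.1, 747.2 and 57.5 CPM, so that the lot 2 control was close to the libraries labelled Skp1aKO.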
